A study of Mus musculus with 8 samples.

Results

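The 10 claudin genes described here are Cldn1, Cldn2, Cldn3, Cldn4, Cldn5, Cldn6, Cldn8, Cldn10, Cldn16 and Cldn19. They were taken by symbol from the gene expression features of a single-cell count matrix of the developing mouse kidney, and all 10 were found among its 32285 genes. The matrix is 1 pool of cells stained with lipid-anchored multiplexing tags and run together, with 1 gene expression library and 1 tag library. The feature reference names the tags of 4 mice, 2 ko and 2 wt, which were male embryos at E17.5. In all, 8 tags were in use, and cells with a tag not named for a mouse were left out. Both ko mice were Trim28Δ/Δ, in which loxP-flanked (floxed) Trim28 alleles were recombined by the Tg(Six2-EGFP/cre) transgene, active in the progenitors that give rise to the nephron but not in the ureteric bud or in stroma. Both wt mice were Trim28f/f, so the floxed alleles were shared by both groups and the transgene was particular to the ko mice. TRIM28 is a corepressor that recruits heterochromatin factors, and the 6 bulk libraries of newborn kidneys in the same study were not analysed here.

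Claudins are membrane proteins with 4 transmembrane segments that form the strands of tight junctions between neighbouring epithelial cells. The set of claudins in a junction decides which ions cross between the cells, and each stretch of the nephron is known for its own set. In the proximal tubule CLDN2 forms a channel for cations and water. In the thick ascending limb of the loop of Henle CLDN10 forms a cation channel, and CLDN16 with CLDN19 is needed for the paracellular uptake of magnesium and calcium. CLDN3, CLDN4 and CLDN8 belong to the tighter junctions of the distal nephron and collecting duct, CLDN1 is a barrier claudin also known from the epithelial lining of Bowman's capsule, CLDN5 is the claudin of endothelial junctions and is also made by podocytes, and CLDN6 is a claudin of embryonic epithelia.

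The genes lie on 6 chromosomes, and a few of them are neighbours. Positions are given for GRCm38 from the GENCODE M21 annotation. On chromosome 5, Cldn4 (chr5:134945119-134946934, minus strand) and Cldn3 (chr5:134986214-134987472, plus strand) were next to each other with 39279 bp between them. On chromosome 16, Cldn1 (chr16:26356642-26371841, minus strand) and Cldn16 (chr16:26463135-26482765, plus strand) were adjacent with a gap of 91293 bp. Cldn10 (chr14:118787908-118875489, plus strand) covered 87582 bp because it has alternative first exons. The counts come from tags at the 3′ end of transcripts, so the forms made from these first exons were counted together.

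The 250 bases before the start of transcription are shown for the claudins on which the results turn: the alternative starts of Cldn10, and Cldn16 and Cldn2, which mark the loop and the proximal tubule. Capitals mark a GC box (GGGCGG or its reverse complement) or a TATA box (TATAAA). The sequences are from RefSeq on GRCm38.p6, whose table matched 9 of the 10 genes with 11 start windows; Cldn8 had none. The windows are chr14:118787621-118787870 and chr14:118854700-118854949 for the upstream and downstream starts of Cldn10, chr16:26462885-26463134 for Cldn16 and chrX:139800558-139800807 for Cldn2, all on the plus strand.
Cldn10, upstream start: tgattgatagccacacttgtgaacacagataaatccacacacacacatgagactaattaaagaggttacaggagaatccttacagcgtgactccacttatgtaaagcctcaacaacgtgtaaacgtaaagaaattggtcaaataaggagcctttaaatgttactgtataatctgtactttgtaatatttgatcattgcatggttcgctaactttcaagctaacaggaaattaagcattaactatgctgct
Cldn10, downstream start: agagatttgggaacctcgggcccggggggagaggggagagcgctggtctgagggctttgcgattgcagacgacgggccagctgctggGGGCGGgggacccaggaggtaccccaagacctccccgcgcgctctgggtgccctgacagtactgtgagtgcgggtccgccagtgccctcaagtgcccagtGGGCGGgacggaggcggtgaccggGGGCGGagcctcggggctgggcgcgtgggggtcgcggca
Cldn16: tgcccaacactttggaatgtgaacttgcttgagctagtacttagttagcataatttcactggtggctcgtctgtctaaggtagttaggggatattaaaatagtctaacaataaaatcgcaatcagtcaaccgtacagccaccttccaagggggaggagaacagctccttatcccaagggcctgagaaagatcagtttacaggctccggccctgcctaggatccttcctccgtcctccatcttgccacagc
Cldn2: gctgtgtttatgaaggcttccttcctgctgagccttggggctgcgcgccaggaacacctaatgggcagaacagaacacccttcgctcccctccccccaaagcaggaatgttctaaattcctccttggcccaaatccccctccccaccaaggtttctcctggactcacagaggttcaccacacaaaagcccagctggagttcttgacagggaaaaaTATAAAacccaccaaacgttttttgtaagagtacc
The upstream start of Cldn10 had 36% G and C and held no match to either motif, whereas the downstream start had 72.4% G and C and 3 GC boxes. The Cldn16 window had 48% G and C and no match. The Cldn2 window had the TATA box 35 bases before its start. Over all 32851 RefSeq windows searched on both strands, 32.7% held the GC box and 12.4% the TATA box. A binding motif of the epithelial grainyhead-like factors, AACCGGTT, was in 0.116% of all windows and in none of the claudin windows.

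Of 19272 cells that passed the filters, 7363 were assigned to 1 of the 4 mice (1316 and 1491 cells for the ko mice, 2749 and 1807 for the wt mice) and were used. The median depth per mouse was between 16386 and 17354 UMIs per cell, where a UMI is 1 counted molecule. Clustering made without any claudin gene gave 24 clusters, of which 20 carried the markers of a kidney cell type and were named "-like", and 4 remained unnamed. In 19 classes each mouse had at least 10 cells. Trim28 fell in 10 classes, all of them nephron classes or the unnamed clusters 0 and 11, with log2 fold changes (ko over wt) from -2.67 to -1.52, and did not pass the test in the ureteric bud, collecting duct, intercalated, stromal, mural, endothelial and immune-like classes or in cluster 15 (log2 -0.18 to 0.26). The counted 3′ tags lie outside the deleted part of Trim28, so these levels are no direct measure of the deletion. Without the integration of the mice, 2 clusters with 280 cells came to 90% or more from wt replicate 1, which also stood apart in several values below.

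Levels are counts scaled to a common total (CPM, UMIs of a gene per 1000000 UMIs) of all cells of a class summed in each mouse, given as mean ± SD over the 4 mice, and 4 values in a row are those of the 2 ko mice and then the 2 wt mice. They describe 1 gene across classes and are not compared between genes. Free RNA from broken cells also reaches cells that do not make it, and levels of a few CPM may be no more than that. No test is given for differences between classes.

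**Figure D1:**
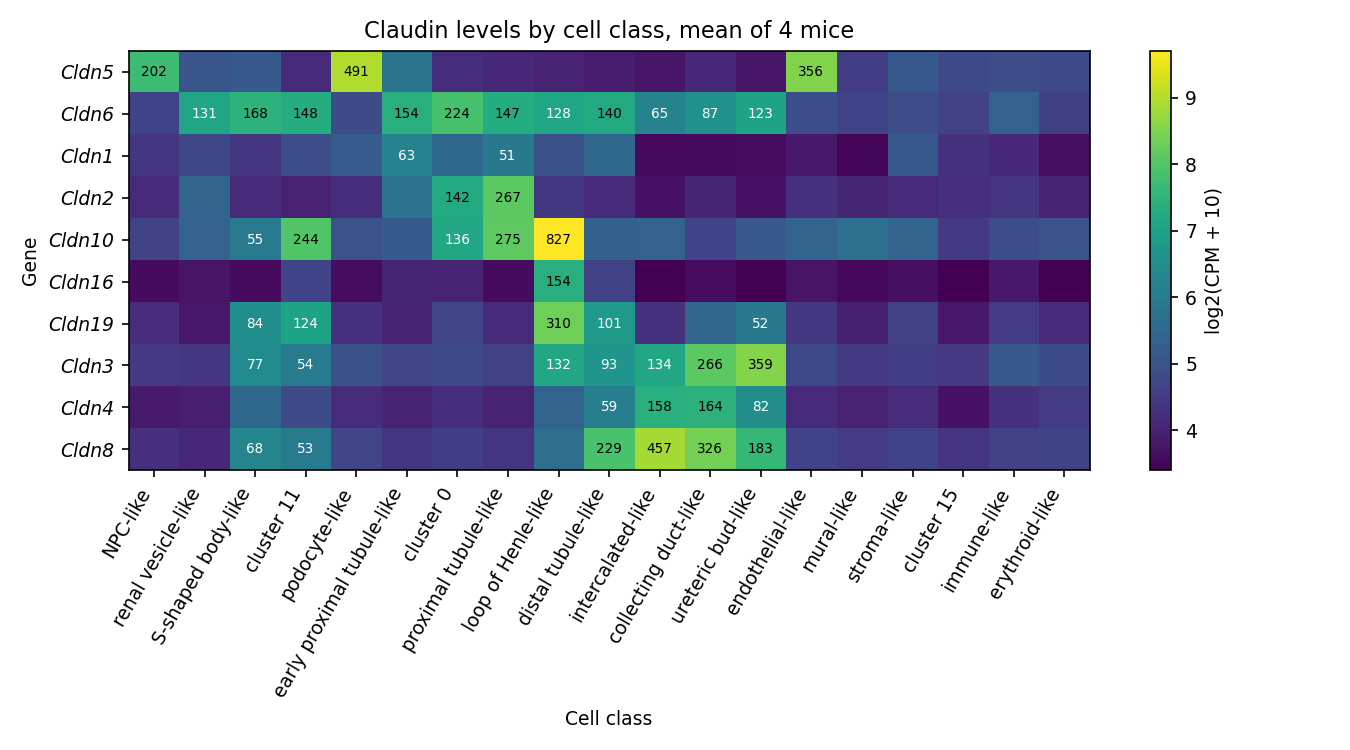
Mean level of each claudin (rows) in the 19 cell classes (columns), as log2(CPM + 10) over 4 mice, with the CPM printed where it was at least 50. Each gene has its own set of classes, from the single class of Cldn16 (154 CPM in the loop of Henle-like class) to the broad pattern of Cldn6.

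The class with the highest level of Cldn2 was the proximal tubule-like one. Its level in the proximal tubule-like class was 286.5, 279.5, 243.5 and 257.2 CPM (267 ± 19.9, SD, n = 4). The lowest of these mice lay above the highest in the next class, the unnamed cluster 0, which had 142.5 ± 28.3 CPM, and this was followed by the early proximal tubule-like class with 43.7 ± 15.8 CPM. The median of the 19 classes was 7.93 CPM, and 58.2% of all Cldn2 UMIs were in the proximal tubule-like class, which made up 8.11% of the cells. A Cldn2 UMI was found in 98.2% of proximal tubule-like cells and in 11.7% of immune-like cells, which should lack it (median 24880 and 13510 UMIs per cell), and in 80.3% and 4.52% after thinning every cell to 6891 UMIs. The genes whose levels over the 19 classes were most like those of Cldn2, as a description, were Slc2a2 (Pearson r 0.99), which encodes the basolateral glucose transporter GLUT2, Tmem174 (r 0.99) and Hdc (r 0.99), the histidine decarboxylase.

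Cldn1 was low throughout. Its highest level was in the early proximal tubule-like class, with 51.3, 52.4, 73.7 and 75.9 CPM (63.3 ± 13.3), and the ranges of this class and of the proximal tubule-like class (51.4 ± 10.97 CPM) overlapped. Cluster 0, the distal tubule-like class and the podocyte-like class followed with 36.2, 35.4 and 27.8 CPM. Lining cells of Bowman's capsule were not among the named classes.

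Cldn10 was highest in the loop of Henle-like class and present in the proximal tubule. The loop class had 779, 791, 823 and 914 CPM (827 ± 60.9), 3.01-fold the level of the next class, and no mouse overlapped with it. This next class was the proximal tubule-like one with 313, 284, 245 and 256 CPM (275 ± 30.5). Cluster 11, an unnamed cluster, had 244 ± 88.1 CPM and overlapped with the proximal tubule. Cluster 0 had 136 ± 22.1 CPM and the S-shaped body-like class 54.7 ± 20.8 CPM, while the median class had 31.7 CPM. In 96.3% of proximal tubule-like cells both Cldn2 and Cldn10 had at least 1 UMI.

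**Figure D2:**
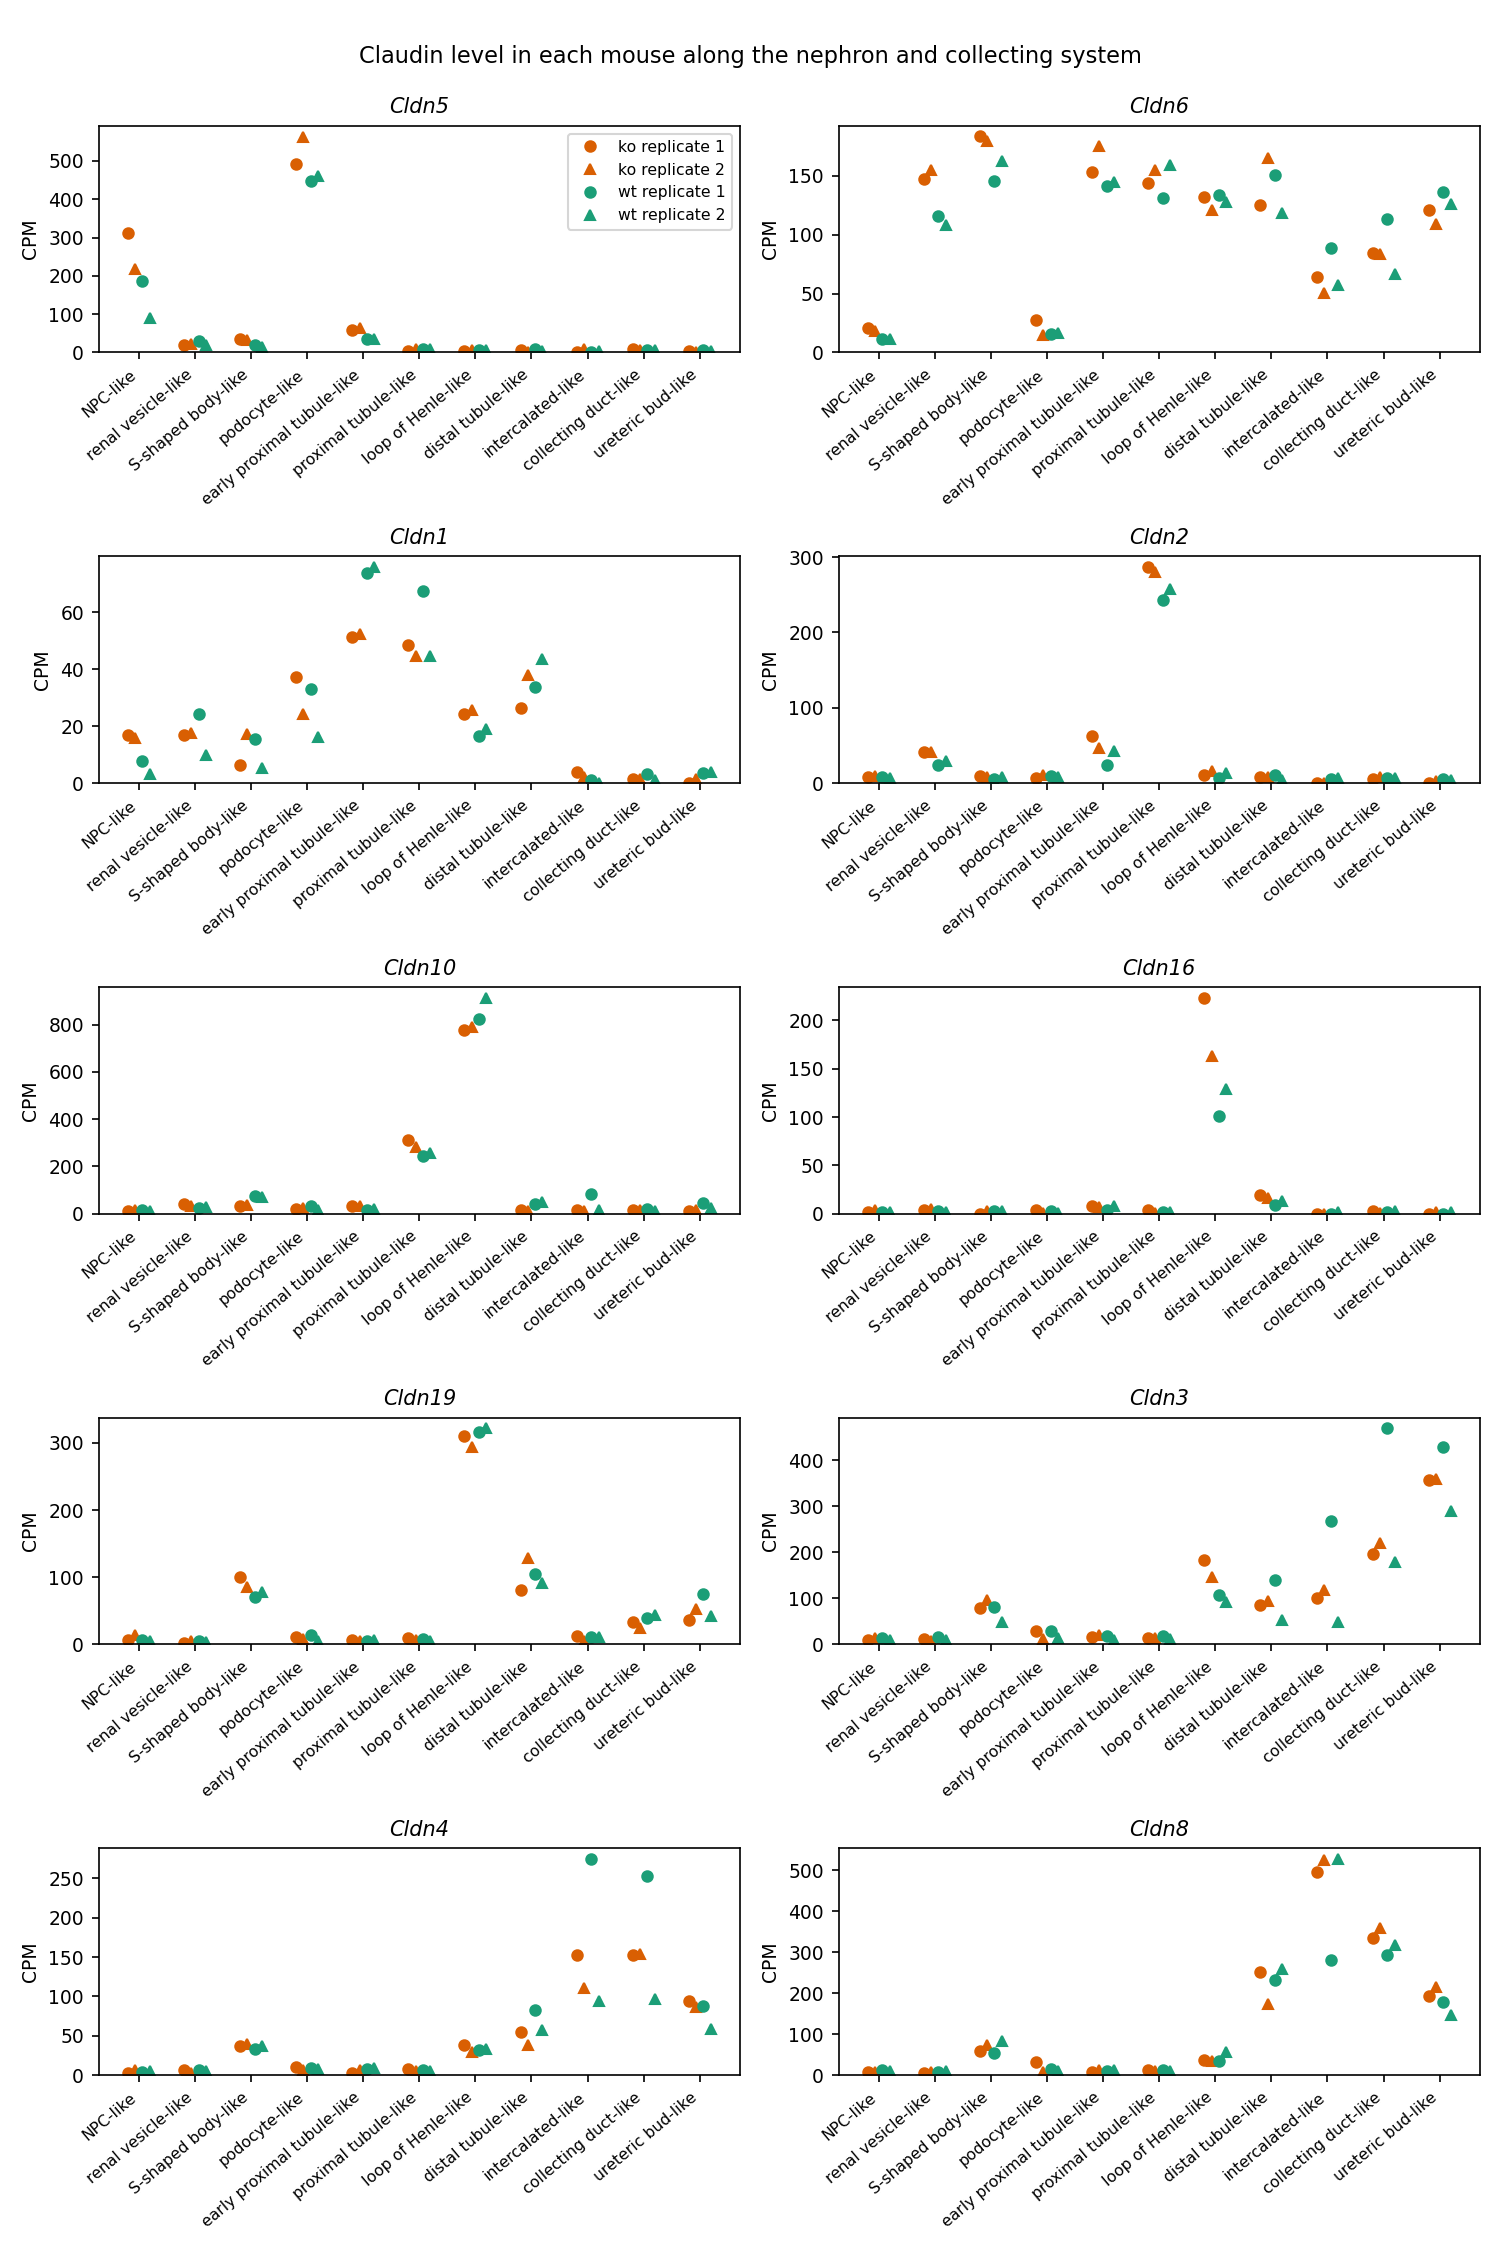
Level of each of the 10 claudins (panels, CPM) in 11 cell classes, with 1 point for each of the 4 mice. The mice lie close together for Cldn2 in the proximal tubule-like class (243.5 to 286.5 CPM) and for Cldn19 in the loop of Henle-like class (294 to 321.5 CPM), and far apart for Cldn5 in the endothelial-like class (155 to 489 CPM).

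The magnesium and calcium claudins were found in the loop. Cldn16 had 223, 163, 101 and 129 CPM in the loop of Henle-like class (154 ± 52.8). The next class, cluster 11, had 15.6 CPM, a 9.88-fold difference, and 71.9% of Cldn16 UMIs were in the loop class with its 6.15% of cells. Cldn16 was most like Slc12a1 (r 0.95), which encodes the sodium-potassium-chloride cotransporter of the thick limb, Car15 (r 0.93) and Ppp1r1a (r 0.91).

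Cldn19 had 311, 294, 316 and 321.5 CPM in the loop class (310.5 ± 11.9), the smallest spread relative to the mean among the highest classes of the 10 genes. It reached further than Cldn16: cluster 11 had 124 ± 57.3 CPM, the distal tubule-like class 101 ± 21.05 CPM, the S-shaped body-like class 83.8 ± 12.7 CPM and the ureteric bud-like class 51.6 ± 17.1 CPM, and each of these overlapped with the next. Its most similar genes were Tfap2b (r 0.97), which encodes a transcription factor of the distal nephron, Prdm16os (r 0.93) and Fgf9 (r 0.90).

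Cldn3, Cldn4 and Cldn8 marked the distal and collecting segments. Cldn3 was highest in the ureteric bud-like class with 358, 360, 429 and 290 CPM (359 ± 56.9). The collecting duct-like class had 197, 220, 470 and 178 CPM (266.5 ± 137), and the large SD came from wt replicate 1. The intercalated, loop of Henle and distal tubule-like classes followed with 134, 132 and 93.0 CPM, and all neighbours in this order overlapped.

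Cldn4 was highest in the collecting duct-like class, with 153, 154, 254 and 96.2 CPM (164 ± 65.5), and the intercalated-like class with 158 ± 81.6 CPM could not be told from it. The ureteric bud-like class had 81.6 ± 15.3 CPM and the distal tubule-like class 58.5 ± 18.4 CPM. Cldn8 had 494, 525, 280 and 527 CPM in the intercalated-like class (457 ± 119), 326 ± 27.2 CPM in the collecting duct-like class, 229 ± 38.6 CPM in the distal tubule-like class and 183 ± 28.7 CPM in the ureteric bud-like class. Its intercalated and collecting duct ranges overlapped, and the collecting duct lay above the distal tubule in every mouse. Across the classes Cldn4 and Cldn8 were the most like each other of all 6215 genes compared (r 0.98), and Gm16136 came next for Cldn4 (r 0.98).

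Cldn5 was highest outside the tubules. The podocyte-like class had 492, 564, 449 and 460 CPM (491 ± 51.7) and the endothelial-like class 489, 438, 155 and 340 CPM (356 ± 147). The third was the NPC-like class (cells with markers of the nephron progenitors) with 312, 217, 186 and 90.8 CPM (201.5 ± 91.2). Within it the level was that of 1 cluster (267 CPM), whereas the other NPC-like cluster had 12.1 CPM. The podocyte-like clusters had 847 and 390 CPM, the higher level in the cluster with the stronger podocyte markers. The genes most like Cldn5 were Sncaip (r 0.91), Plat (r 0.89), the tissue plasminogen activator, and Jcad (r 0.88), a protein of endothelial junctions.

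Cldn6 was the broadest. Cluster 0 had 226.5, 233.5, 201 and 236 CPM (224 ± 16.1) and lay above every other class. The S-shaped body, early proximal tubule, cluster 11, proximal tubule, distal tubule, renal vesicle, loop of Henle and ureteric bud-like classes followed from 168 down to 123 CPM, and each overlapped with its neighbour. The collecting duct-like class had 86.9 CPM and the intercalated-like class 65.1 CPM, and the podocyte-like (18.6 CPM), NPC-like (15.4 CPM) and stroma-like (19.9 CPM) classes were low. Genes with a similar pattern were Rab3ip (r 0.96) and Grb7 (r 0.96).

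The loop of Henle-like class was not uniform in its claudins. Of its 453 cells, 95 (20.97%) had no Cldn10 UMI, while 235 (51.9%) had 10 or more, with a median of 10 and a maximum of 182. The share without Cldn10 was 30.3%, 24.0%, 17.8% and 13.2% in the 4 mice, and after thinning 37.4%, 31%, 23.3% and 22.0%. Both ko mice had the larger shares, and this was not tested. Cells with and without Cldn10 had similar depths (median 17338 and 15991 UMIs). The splitting of the class by Cldn10 was chosen after its values were seen, so it is a description with no test.

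Cells without Cldn10 had more Cldn16, with 447, 409, 194 and 409 CPM, than cells with Cldn10, with 136, 97.8, 81.1 and 86.7 CPM. In each of the 4 mice the cells without Cldn10 were the higher. Cldn3 was also higher without Cldn10 in 4 of 4 mice (mean 214 against 110 CPM), and Cldn19 was nearly even (280 against 317 CPM). Umod, the uromodulin of the thick limb, was at 31.5 CPM without Cldn10 and at 467 CPM with it, lower without Cldn10 in 4 of 4 mice, and Pappa2, which cuts IGF-binding proteins, was likewise lower (84.7 against 306.5 CPM). The cotransporter gene Slc12a1 was at 3389 CPM without and 2651 CPM with Cldn10, so both kinds of cell carried this loop marker. Without the cells marked as doublets by Scrublet (83 and 334 cells left) Cldn16 was at 353 and 96.3 CPM.

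Pairs of claudins were also counted in single cells. Cldn10 and Cldn16 were found together in 39.3% of loop of Henle-like cells, where the product of their shares is 45.7%, and the share was below the product in 4 of 4 mice. For Cldn10 and Cldn19 these were 75.1% and 74.1%. In the distal tubule-like class the order was the other way round, with both Cldn10 and Cldn16 in 7.39% of cells against a product of 3.96%. In cluster 11 both were in 8.52% of cells against a product of 5.73%, above the product in 4 of 4 mice. After thinning the share was still below the product in 4 of 4 mice in the loop of Henle-like class, where 99 cells held both. It was above the product in 3 of 4 mice in the distal tubule-like class and in 2 of 4 in cluster 11. There only 5 and 9 cells held both, too few to give an order for each mouse.

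**Figure D3:**
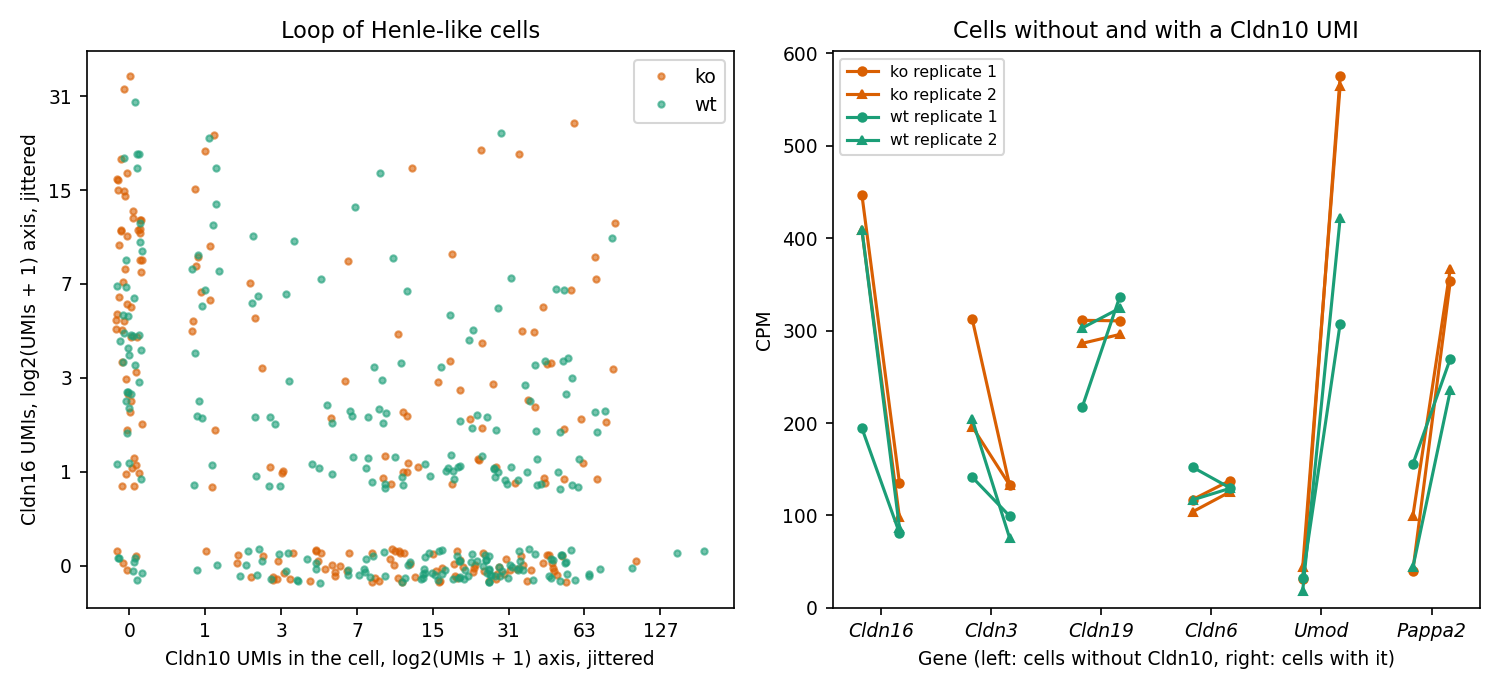
Left, Cldn10 and Cldn16 UMIs in each of the 453 loop of Henle-like cells. Right, level (CPM) of 6 genes in the loop cells without and with a Cldn10 UMI, with 1 point for each mouse; Cldn16 was higher and Umod lower without Cldn10 in 4 of 4 mice.

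Between the genotypes, the 10 claudins gave 132 tests over the 19 classes, of which 1 passed (edgeR's quasi-likelihood test on summed counts, Benjamini-Hochberg over all genes of a class, adjusted p under 0.05). Over all genes 0.363% of tests passed, from none of the tested genes in the stroma, endothelial, mural, intercalated and erythroid-like classes (0%), 0.0102% in the ureteric bud-like, 0.0186% in the collecting duct-like, 0.0576% in the immune-like class and 0.144% in cluster 15 to 0.571% in cluster 0, 0.671% in the S-shaped body-like, 0.823% in the proximal tubule-like and 1.16% in the NPC-like class. Without adjustment, 22 of the 132 tests (16.7%) had a p under 0.05, against 7.34% of the tests of all genes. These tests are not independent, since the classes share the same 4 mice. In 53 of the 132 tests the 2 ko mice did not overlap with the 2 wt mice (32 with the ko mice above, 21 below), where this was so for 36.8% of the tests of all genes. The mouse was the replicate in all tests, and cells were not.

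Cldn10 fell in the distal tubule-like class, where 0.601% of all tested genes passed. Its level was 18.0 and 11.5 CPM in the ko mice and 42.8 and 49.8 CPM in the wt mice, so both ko mice were below both wt mice, with a log2 fold change (ko over wt) of -1.62 (SE 0.29, adjusted p = 0.0185). Beside this value stand others. The share of distal tubule-like cells with a Cldn10 UMI was 32.3%, 29.5%, 29.2% and 27.3%, with no lower share in the ko mice, and after thinning it was 4.6%, 11.4%, 15.8% and 12.7%. In the immune-like class, which should lack Cldn10, the mean share was 17.1%, and 9.78% after thinning (median 18120 and 13510 UMIs per cell in the distal tubule-like and immune-like classes). The thinned shares of the 4 mice lay on both sides of that in the immune-like class, with both ko mice below both wt mice, which the unthinned shares did not show. Free RNA from other cells could make up at most 2.62% of the distal tubule-like class and 11.2% of the immune-like class by its lowest marker of another cell type, so the immune-like share is not a background common to both. The sum of the 7 collecting duct markers in this class was 776 and 668 CPM in the ko mice and 1288 and 1402 CPM in the wt mice, with 4 of the 7 markers lower. The sum of the 6 intercalated markers was also lower, at 178 and 164 against 231 and 253 CPM. Among them Atp6v1g3, a proton pump subunit, was at 6.94 and 10.7 against 24.4 and 96.5 CPM (log2 -2.71, adjusted p = 0.0531). The genotypes overlapped for Atp6v1b1 (147.7 and 108.6 against 152.5 and 117.2 CPM), Atp6v0d2 and Foxi1, so the lower sum is not a trait of all intercalated markers. The sum of the 7 loop of Henle markers overlapped between the genotypes, with 671 and 491 against 468 and 567 CPM, whereas one of them, the cotransporter Slc12a1, was at 132 and 120 CPM in the ko mice and 165 and 172 CPM in the wt mice (log2 -0.43, unadjusted p = 0.0233, adjusted p = 0.476). The part of these markers in the result was not tested. The call was lost in 6 of 15 alternatives of the processing, among them without ko replicate 2 (log2 -1.34, adjusted p = 0.0846) and without the cells that Scrublet marked as doublets (log2 -1.28, adjusted p = 0.419). The test of the interaction, of this change against that in 14 other classes, passed for none of them, with a lowest adjusted p of 0.070 for cluster 11.

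**Figure D4:**
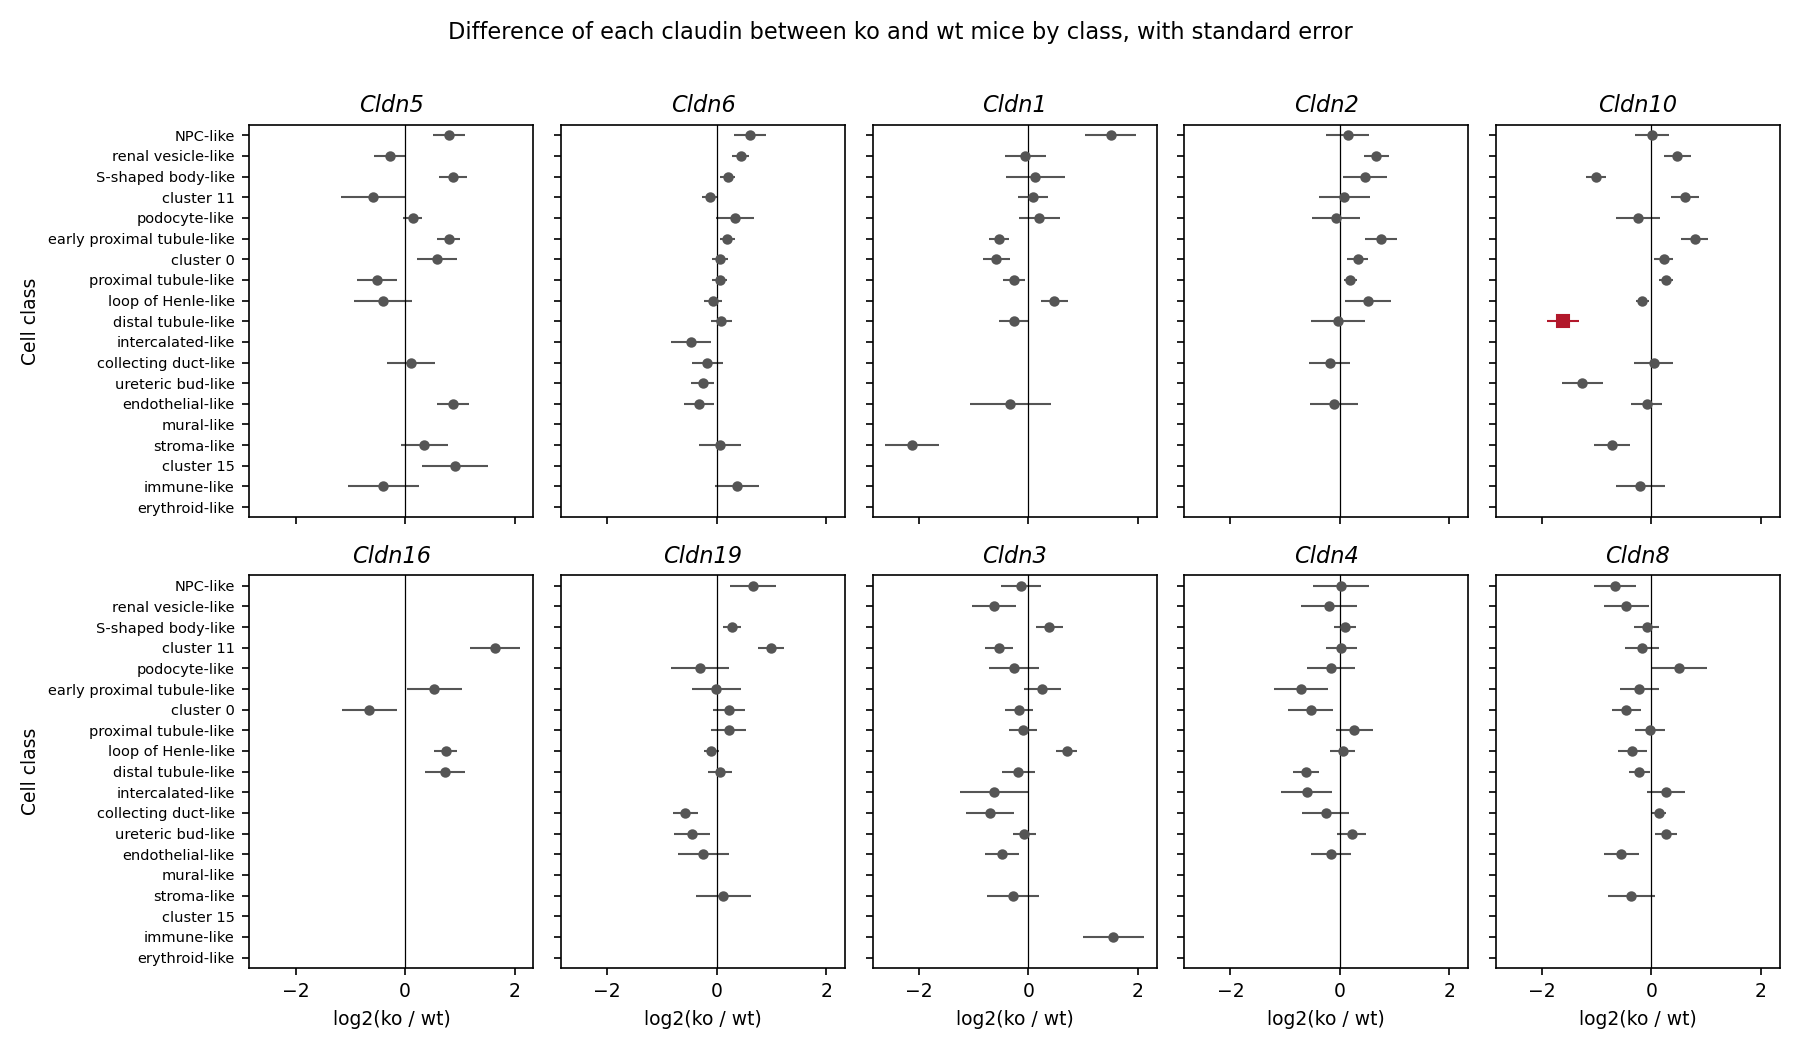
Log2 fold change of each claudin (ko over wt) with its standard error in each class in which it was tested; the red square is the one test with an adjusted p under 0.05, Cldn10 in the distal tubule-like class (-1.62).

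Of the other tests, Cldn10 in the S-shaped body-like class came nearest to the threshold. It had 34.7 and 39.1 CPM in the ko mice and 75.3 and 69.8 CPM in the wt mice (log2 -1.01, SE 0.19, adjusted p = 0.0501), and both ko mice were below both wt mice. In this class the renal vesicle markers were also lower in the ko mice, with a sum of 608 and 631 against 1036 and 879 CPM and 3 of them called, and their part in the result was not tested. It was called in 6 of 13 alternatives of the processing and reversed in 1. Cldn1 in the stroma-like class, where Trim28 did not pass the test, had a larger fold change than the one call (log2 -2.12, SE 0.49). It was at 3.88 and 15.56 CPM in the ko mice and 36.45 and 44.55 CPM in the wt mice. The edgeR test did not pass (unadjusted p = 0.00127, adjusted p = 0.615). In the NPC-like class Cldn1 was higher in both ko mice (16.96 and 15.81 against 7.85 and 3.20 CPM, edgeR adjusted p = 0.225).

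In the loop of Henle-like class Cldn16 was higher in both ko mice (223 and 163 CPM) than in both wt mice (101 and 129 CPM), with a log2 of 0.74 (SE 0.21, adjusted p = 0.394). Cldn3 had 184 and 146 against 107 and 92.6 CPM there (log2 0.70, adjusted p = 0.357). Cldn10 was at 779 and 791 against 823 and 914 CPM (log2 -0.17), and Cldn19 differed by -0.10. None of these passed the test, and 0.208% of genes passed in this class. The loop cells without Cldn10, which had more Cldn16, were a larger share in the ko mice (30.3% and 24.0% against 17.8% and 13.2%). Among these cells the genotypes overlapped in Cldn16, with 446.6 and 408.6 against 194.3 and 408.8 CPM. Among cells with Cldn10 it was at 135.5 and 97.8 against 81.1 and 86.7 CPM. The part of these shares in the result was not tested.

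In cluster 11, Cldn19 had 200 and 131 CPM in the ko mice and 98.2 and 65.8 CPM in the wt mice (log2 0.99, adjusted p = 0.145), and Cldn16 had 31.5 and 15.9 against 4.41 and 10.6 CPM (log2 1.64, adjusted p = 0.272). The groups did not overlap in either. The loop of Henle markers in this cluster were also higher in the ko mice, with sums of 1212 and 593 against 405 and 398 CPM, and their part in the result was not tested.

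In the early proximal tubule-like class Cldn5 had 59.1 and 62.8 CPM in the ko mice and 35.7 and 34.3 CPM in the wt mice (log2 0.79, adjusted p = 0.181), and the change turned to -0.68 with 20 principal components. Cldn2 had 62.2 and 46.6 against 23.8 and 42.1 CPM (log2 0.75, adjusted p = 0.490). Cldn1 was lower in the ko mice with 51.3 and 52.4 against 73.7 and 75.9 CPM (log2 -0.53, adjusted p = 0.423), with 0.02 at clustering resolution 1.2. In the proximal tubule-like class, Cldn2 was at 286.5 and 279.5 against 243.5 and 257.2 CPM, and its log2 fold change of 0.19 (SE 0.12) did not pass the test.

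The changes of Cldn5 in the endothelial-like and NPC-like classes were 0.88 and 0.80 on the log2 scale, with adjusted p = 0.660 and 0.350. The NPC-like class joins clusters with 267 and 12.1 CPM of Cldn5, and its change turned to -0.46 at clustering resolution 1.2. In the collecting duct-like class wt replicate 1 decided the values: its Cldn3 level was 470 CPM against 197 and 220 in the ko mice and 178 in wt replicate 2. The log2 fold change of Cldn4 there was 0.64 without wt replicate 1 and -0.79 without wt replicate 2, so its direction rested on which wt mouse was kept.

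The other claudin genes of the matrix, 17 of 18 listed, gave 62 tests, of which 5 passed, and 20 (32.3%) had an unadjusted p under 0.05, where 0.363% of the tests of all genes passed and 7.34% had such a p. Most of the 20 were tests of Cldn7, Cldn9 and Cldn11 in several classes. These tests, like those of the gene lists below, are not independent, since the classes share the same 4 mice. Cldn11, a claudin of myelin and of Sertoli cells, rose in the podocyte-like class from 2.45 and 3.01 CPM in the wt mice to 47.3 and 24.5 CPM in the ko mice (log2 3.62, SE 0.45, adjusted p = 0.00467), where 0.356% of genes passed. It rose in the NPC-like class, with 48.9 and 19.9 against 3.04 and 2.54 CPM (log2 3.44, adjusted p = 0.00865, 1.16% of genes passing), and in the early proximal tubule-like class, with 15.6 and 15.7 against 0.264 and 2.08 CPM (log2 4.02, adjusted p = 0.0116, 0.629%). The call in the NPC-like class was lost without ko replicate 1 (log2 2.70, adjusted p = 0.313) and without ko replicate 2 (log2 3.98, adjusted p = 0.053), whereas those in the podocyte-like and early proximal tubule-like classes were kept in all 13 and 11 alternatives run. In all 3 classes the wt levels were so low (1 and 4 UMIs in the early proximal tubule-like class) that Cldn11 passed the filter on low counts through the ko mice, so these calls could only be higher. Its highest class was the stroma-like one with 101 ± 49.0 CPM. The stromal markers overlapped between the genotypes in the podocyte-like and NPC-like classes, and were lower in the ko mice in the early proximal tubule-like class (59.9 and 54.5 against 76.1 and 69.6 CPM).

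Cldn7, a claudin of the collecting duct that was highest there with 563 CPM, rose in the early proximal tubule-like class from 85.9 and 73.8 to 191 and 212 CPM (log2 1.32, SE 0.16, adjusted p = 0.00203). In the renal vesicle-like class it was at 176 and 186 against 97.3 and 68.2 CPM (log2 1.12, adjusted p = 0.0330), where 0.368% of genes passed. The first call was lost at both other clustering resolutions (log2 0.69 and 0.58) and the second in 4 of 14 alternatives. Erythroid markers, mostly haemoglobins, were also higher in the ko mice in both classes, with sums of 5420 and 6804 against 1236 and 2652 CPM in the early proximal tubule-like class and 4422 and 8451 against 982 and 660 CPM in the renal vesicle-like class, and their part in the result was not tested. Cldn7 was also higher in both ko mice, without a call, in the S-shaped body-like (log2 0.45, adjusted p = 0.184) and loop of Henle-like classes (log2 0.54, adjusted p = 0.444). The same held for the proximal tubule, distal tubule, NPC and ureteric bud-like classes and for clusters 0 and 15. In the endothelial-like class both ko mice were below both wt mice, and in the other classes tested the groups overlapped.

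The remaining claudins that reached 10 CPM in a class gave no call. Cldn14, which in the thick limb is known to block the channel of CLDN16 and CLDN19, was highest in the loop of Henle-like class, with 15.5 and 19.4 CPM in the ko mice and 4.05 and 5.28 CPM in the wt mice. The groups did not overlap, but the log2 fold change of 1.91 (SE 0.35) did not pass the test (adjusted p = 0.13). As for Cldn11, the wt levels were so low that Cldn14 passed the filter on low counts through the ko mice. With these wt levels a difference without overlap could only be higher. These levels rest on few cells. A Cldn14 UMI was found in 5.26% of the loop cells without Cldn10 and in 4.47% of those with it. In ko replicate 1 Cldn14 was at 51.25 CPM in the cells without Cldn10 and at 1.44 CPM in those with it. Cldn9 was highest in the ureteric bud-like class (37.7 CPM), Cldn15 in the endothelial-like class (33.2 CPM), Cldn12 in cluster 0 (27.9 CPM) and Cldn34c1 in the podocyte-like class (11.7 CPM). In the NPC-like class Cldn9 was at 26.9 and 28.2 CPM in the ko mice and 42.3 and 42.3 CPM in the wt mice (log2 -0.76, edgeR adjusted p = 0.209). Both ko mice were also lower in the renal vesicle and endothelial-like classes and in clusters 0 and 11. They were higher in the loop of Henle-like class, and the groups overlapped in the other classes tested.

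**Figure D5:**
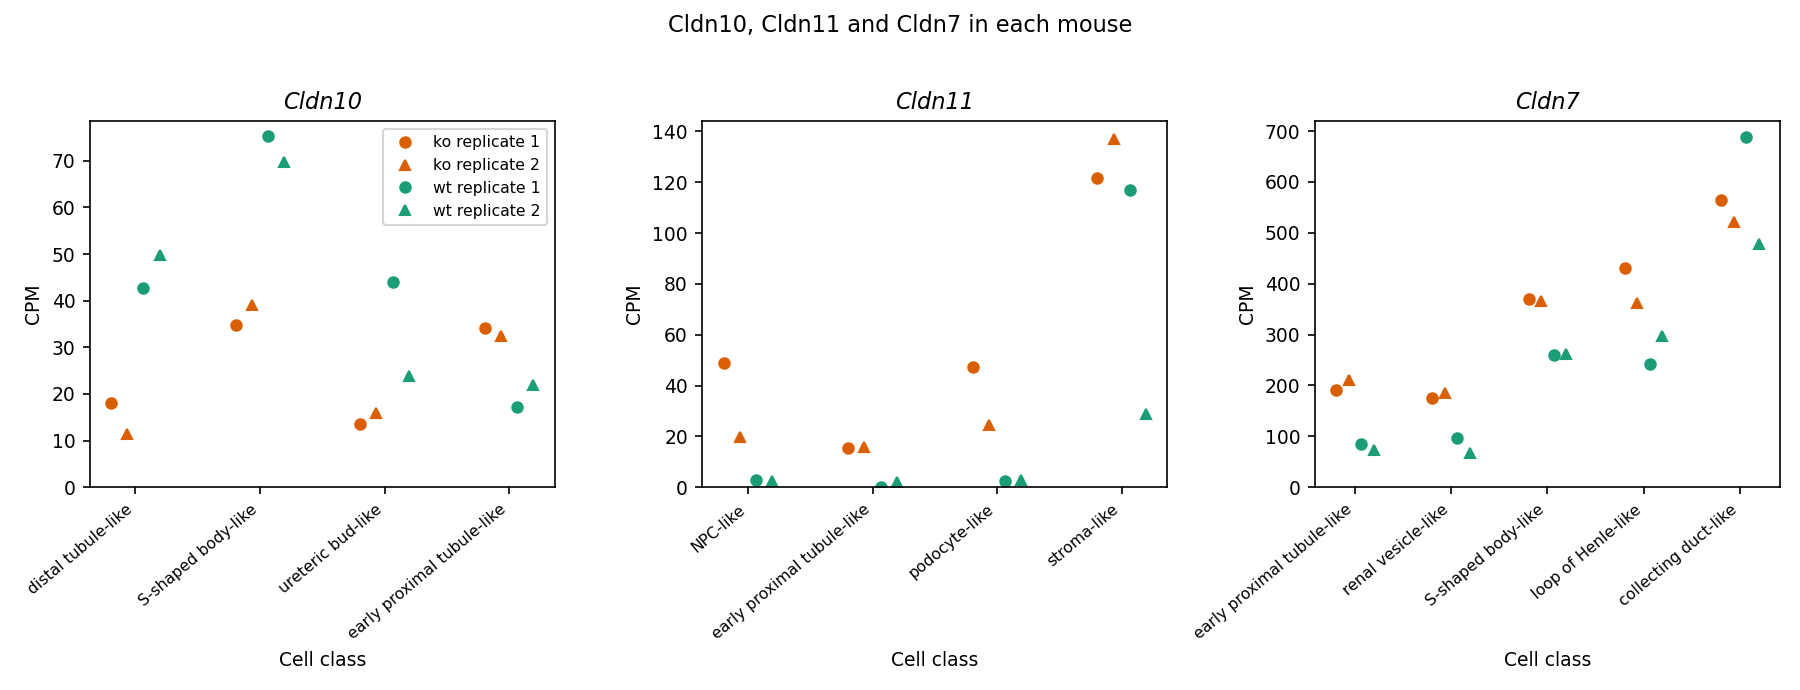
Levels (CPM) in each mouse of Cldn10, Cldn11 and Cldn7 in selected classes, with 1 point for each of 2 ko and 2 wt mice. The test passed for Cldn10 in the distal tubule-like class and for Cldn11 in the NPC, early proximal tubule and podocyte-like classes. For Cldn7 it passed in the early proximal tubule and renal vesicle-like classes. It did not pass in the other classes shown. Both ko mice were above both wt mice in every class shown for Cldn11. For Cldn7 this was so in all classes shown but the collecting duct-like one, where the groups overlapped. For Cldn10 both ko mice were below in all classes shown but the early proximal tubule-like one, where they were above.

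Of the junction proteins that work with the claudins, such as the scaffold Tjp1, occludin and the cingulins, none passed in 307 edgeR tests, with 19 (6.19%) at an unadjusted p under 0.05, where 0.363% of the tests of all genes passed and 7.34% had such a p. Among the transporters and channels beside the paracellular route, 2 of 235 tests passed and 49 (20.9%) had an unadjusted p under 0.05. Both calls were lower in the ko mice in the distal tubule-like class, where 0.601% of all genes passed. They were Aqp2, the water channel of the collecting duct (124 and 74.1 against 260 and 501 CPM, log2 -1.94, adjusted p = 0.0068), and Aqp3 (log2 -1.04, adjusted p = 0.0278), whose calls were lost in 2 and 4 of 15 alternatives. In the intercalated-like class the Aqp2 values were the other way round, with 969 and 1002 CPM in the ko mice and 357 and 204 CPM in the wt mice, and this edgeR test did not pass (log2 1.73, unadjusted p = 0.000509, adjusted p = 0.534). In the S-shaped body-like class Aqp2 was at 81.2 and 70.0 against 43.1 and 53.4 CPM (log2 0.61, unadjusted p = 0.0101, adjusted p = 0.306). Aqp2 and Aqp3 are also 2 of the 7 collecting duct markers whose sum was lower in the ko mice in this class (776 and 668 against 1288 and 1402 CPM). Among regulators of claudins and of epithelial fate, such as Grhl2 and the WNK kinases, 1 of 202 tests passed and 23 (11.4%) had an unadjusted p under 0.05. Tfcp2l1, a transcription factor of the distal nephron and collecting duct, was higher in the ko mice in cluster 11 (246 and 240 against 127.4 and 116 CPM, log2 0.999, adjusted p = 0.0132), where 0.285% of all genes passed. The call was lost without the doublets that Scrublet marked (log2 0.88). The loop of Henle markers were also higher in the ko mice in this cluster (1212 and 593 against 405 and 398 CPM), Tfcp2l1 was at 264 to 579 CPM in the loop of Henle-like class, and their part in the result was not tested.

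Over all cells of a mouse, Cldn2 was 79.1 and 72.9 CPM in the ko mice and 34.4 and 45.3 CPM in the wt mice, with log2 0.93 and an exact permutation p of 0.3333, the smallest that 2 mice a group can give. The share of proximal tubule-like cells was 13.1% and 11.5% in the ko mice and 5.09% and 6.25% in the wt mice, so the whole-kidney level moved together with the share of the class in which Cldn2 was highest. In a mouse as a whole, more cells of a type and more RNA per cell cannot be told apart, and within the proximal tubule-like class the difference was 0.19. Over all cells Cldn16 was at 21.9 and 14.8 against 10.4 and 10.9 CPM (log2 0.78). The share of loop of Henle-like cells was 7.52% and 6.71% in the ko mice and 5.93% and 5.04% in the wt mice. The difference of Cldn16 within its highest class was 0.74, which did not pass the edgeR test (adjusted p = 0.394). Within that class the share of cells without Cldn10, which had more Cldn16, was also larger in the ko mice, and its part was not tested.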

How the data were processed

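The authors pooled tagged cells, among them kidney cells of the 4 embryos used here. They prepared 10x 3′ gene expression and multiplexing libraries and deposited 1 raw matrix of UMI counts. It holds 3921239 barcodes and was read as deposited. Per the labels Cell Ranger 6.0.0 was used, whereas the file header names another software version. The submitters' processing notes list GRCm38 and mm10 with no role, and the sources used here do not name the annotation used for counting. Sources also differ by a day on the age of the embryos. The labels of 2 of 8 samples belong to this pool. The 6 bulk samples were not analysed here.

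A floor of 6891 UMIs called 21385 barcodes as cells, and 19272 of them also had 200 genes or more and a mitochondrial share of 10% or less. HTODemux (Seurat 5.3.0) assigned cells to mice: 4721 cells carried several tags, 2680 no tag and 4508 a tag that the feature reference does not name for a mouse, and these were left out. Cells that carried several tags were taken as doublets, and Scrublet, which marked 7.65% of the assigned cells, was an alternative. Clusters were made after reciprocal PCA integration of the mice, without claudin genes among the features; integration was chosen after clusters of 1 mouse were seen without it. Summed counts were fitted in each class with edgeR 4.0.16 (quasi-likelihood test, TMM, filterByExpr, two-sided), in R 4.3.3. Similarity over classes used log2(CPM + 10). Tests were checked on simulated counts: in the proximal tubule-like class 73% of genes changed 2-fold and 97% of those changed 4-fold were recovered, and in the loop of Henle-like class 59.6% and 100%. All genes were simulated with 1 dispersion (variation between mice beyond that of counting) of 0.02, and only genes above a count floor were changed. Real mice can vary more, such as the wt mice for Cldn3 in the collecting duct-like class (469.7 and 178.5 CPM). These shares may therefore overstate what is recovered in the data. The edgeR p-values and SEs rest on 2 mice a group. They include the variation of counting, and edgeR draws the spread of each gene towards that of all genes. They say nothing of mice other than these. The named genes were the 10 claudins, the other claudins at 10 CPM or more in a class, the junction, transport and regulator genes called in a class, and for each claudin up to 3 genes most like it, of which 1 is not reported here. The members and lists were chosen with earlier results of these data known. Alternatives were another scaling (DESeq2 size factors) and test (DESeq2 1.42.0), no filter, other assignments, doublet removal, other clusterings and leaving out each mouse.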

Additional observations from a re-analysis of the deposited data

Results flagged for a closer look

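Among claudins and classes with a mean of at least 50 CPM, the following changes (log2 ko over wt) had every ko mouse on one side of every wt mouse in one class and on the other side in another class, and the difference between the classes was not tested. Such non-overlap was found in 36.8% of the tests of all genes, and some of the changes are smaller than their SE, such as Cldn19 in the loop of Henle-like class (-0.10, SE 0.14) and Cldn6 in cluster 11 (-0.13, SE 0.15). Cldn3 was lower in cluster 11 (-0.54) and higher in the loop of Henle-like class (0.70). Cldn6 was lower in the ureteric bud-like class (-0.26) and in cluster 11 (-0.13), and higher in the renal vesicle-like (0.44), S-shaped body-like (0.20) and early proximal tubule-like (0.20) classes. Cldn10 was lower in the S-shaped body-like (-1.01) and loop of Henle-like (-0.17) classes and higher in the proximal tubule-like class (0.27). Cldn19 was lower in the loop of Henle-like class (-0.10), and higher in cluster 11 (0.99) and the S-shaped body-like class (0.28). Below 50 CPM the same was seen for more classes: Cldn10, for example, was lower in the distal tubule-like (-1.62), ureteric bud-like (-1.26) and stroma-like (-0.72) classes and higher in the early proximal tubule-like (0.79) and renal vesicle-like (0.48) classes, and Cldn1, Cldn4, Cldn5 and Cldn8 also went both ways when such classes are counted. The distal tubule-like change of Cldn10 was tested against those of 14 other classes, and none of these tests passed. None of the changes at 50 CPM or more passed the test in its own class.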

How the results depend on the processing

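The number of claudin changes that passed was 1, Cldn10 in the distal tubule-like class, which was also the 1 call with DESeq2 size factors, resolution 0.4 or 1.2, no integration of the mice, and each cluster alone. With assignment by tag share and with Scrublet doublets removed the 1 call was instead Cldn10 in the S-shaped body-like class. It was 0 with DESeq2, k-means assignment and 20 principal components, 2 with claudin genes kept in the clustering, 13 with no filter on low counts, and 2 to 33 with 1 mouse left out (14 without wt replicate 1 and 33 without wt replicate 2), where the lone mouse is assumed to vary like the other group. Genes that passed over all classes numbered 632, and 4787 with no filter, 339 at resolution 1.2, 327 without integration and 557 to 19136 with 1 mouse left out (4160 without wt replicate 1, 19136 without wt replicate 2). The fall of Cldn10 in the distal tubule-like class was not past the threshold with DESeq2 (-1.64), k-means (-0.94), assignment by tag share (-1.41), Scrublet doublets removed (-1.28), 20 principal components (-1.06) or ko replicate 2 left out (-1.34), with -2.02 to -1.34 over the mice left out in turn. The cause was not tested.

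Levels moved by more than their SD in the early proximal tubule-like class for Cldn1 (33.2, 46.5 and 31.5 CPM at resolution 0.4, 1.2 and with 20 components), in the proximal tubule-like class for Cldn2 (218 with 20 components), in the podocyte-like class for Cldn5 (410, 854 and 849), and in the loop class for Cldn10 (703 and 708 at both resolutions) and Cldn19 (288 and 286). The class with the highest level was the same in all 14 settings for Cldn2, Cldn3, Cldn5, Cldn10, Cldn16 and Cldn19, in 13 for Cldn4 and in 10 for Cldn1. For Cldn8 it was the collecting duct-like class in the 3 settings (k-means, tag share, Scrublet doublets removed) that held no intercalated-like class among those tested. For Cldn6 the class is an unnamed cluster whose number is not carried over to other clusterings, so no such count is given.

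Directions reversed as follows (log2 ko over wt). With wt replicate 1 left out: Cldn4 (0.64) and Cldn3 (0.20) in the collecting duct-like class, Cldn4 (0.32), Cldn3 (1.10) and Cldn8 (-0.15) in the intercalated-like class, Cldn3 in the ureteric bud-like class (0.25), and Cldn6 in cluster 0 (-0.02) and the proximal tubule-like class (-0.07). At the other end of the range, with wt replicate 2 left out, these 8 values were -0.79, -1.23, -1.16, -1.31, 0.82, -0.32, 0.15 and 0.19. With ko replicate 2 left out: Cldn19 (-0.29), Cldn8 (0.03) and Cldn6 (-0.11) in the distal tubule-like class and Cldn6 in the loop class (0.02), where without ko replicate 1 the first 3 were 0.37, -0.53 and 0.27. With wt replicate 2 left out: Cldn19 (-0.02) and Cldn6 (-0.06) in the distal tubule-like class. By tag share: Cldn19 there (-0.03). Without integration: Cldn10 in the S-shaped body-like class (0.22) and Cldn19 in the loop class (0.06). At resolution 1.2: Cldn1 in the early proximal tubule-like class (0.02), Cldn5 in the NPC-like class (-0.46) and Cldn6 in the loop class (0.01). With 20 components: Cldn5 in the early proximal tubule-like class (-0.68) and Cldn6 in the proximal tubule-like class (-0.01), which also turned without Scrublet doublets (-0.01). The integration of the mice was made the main setting after clusters of 1 mouse were seen without it, and each cluster alone was also added after seeing the data.

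No paired analysis was possible because the tags give no number that pairs a ko with a wt mouse. With 2 mice a group no exact permutation p can go below 0.3333. The depth of 6891 UMIs or more per cell limits what is read from shares of cells with 1 UMI.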
